A study of Homo sapiens with 6 samples.

Results

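The 44 genes described here encode the alpha chains of the collagens. They are the protein-coding rows of the deposited count table whose symbol is COL, digits, A and digits with nothing after, out of 58735 genes in all, and they were divided by textbook class into 11 fibrillar chains, 6 basement membrane chains (type IV) and 27 chains of other types. RNA was sequenced from ES2, a human ovarian cancer cell line, in 3 libraries transfected with a control siRNA (4390846, genotype WT) and 3 transfected with UAP1 siRNAs (genotype UAP1 knockdown, here siUAP1). The labels list 2 UAP1 siRNAs, s13338 and s13337, and do not say whether they were pooled or which library received which. All 6 libraries were made from cells grown in serum-containing medium, transfected with the same lipid reagent, given fresh medium after 6 hours and lysed 48 hours after transfection. UAP1 is the enzyme that makes UDP-N-acetylglucosamine, the sugar donor of protein and proteoglycan glycosylation, and the comparison asked how the transcriptome differed once it was knocked down.

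Collagen chains wind into a helix that requires glycine at regular intervals, and each type is built from a fixed set of chains. Fibrillar collagens (types I, II, III, V, XI, XXIV and XXVII) form the tension-bearing fibrils of connective tissue, and type V starts and limits the width of type I fibrils. Type IV forms the sheet of basement membranes, with alpha1 and alpha2 chains in nearly all tissues and the other chains in restricted ones. The remaining types include the microfibrils of type VI, chains that decorate fibrils (FACIT, such as types IX, XII, XIV and XVI), transmembrane collagens (XIII, XVII, XXIII and XXV) and the basement membrane zone collagens VII, XV and XVIII. In solid tumours much of the collagen is made by stromal fibroblasts, while carcinoma cells also make chains of their own.

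The type IV genes stand in head-to-head pairs, so that both chains of a pair start from the same short stretch of DNA. The stretches are shown to describe how the pairs are placed. Over the 6 libraries the ratio ran from 0.492 to 0.513 for COL4A1 to COL4A2 and from 0.844 to 1.20 for COL4A5 to COL4A6. That of COL4A4 to COL4A3, both of low counts, ran from 0.181 to 5.58. Whether a shared start bears on these ratios was not tested. RefSeq windows (GRCh38.p14) run from 250 bases before to 50 after a start site, and 32 of the 44 genes had 1 or more. In the sequences, which read 5′ to 3′ on the plus strand, capitals mark the CCAAT box (CCAAT, or ATTGG on the other strand) and the GC box (GGGCGG, or CCGCCC). The COL4A2 window is chr13:110307034-110307333, the COL4A3 window chr2:227164374-227164673 and the COL4A5 window chrX:108439588-108439887.
COL4A2: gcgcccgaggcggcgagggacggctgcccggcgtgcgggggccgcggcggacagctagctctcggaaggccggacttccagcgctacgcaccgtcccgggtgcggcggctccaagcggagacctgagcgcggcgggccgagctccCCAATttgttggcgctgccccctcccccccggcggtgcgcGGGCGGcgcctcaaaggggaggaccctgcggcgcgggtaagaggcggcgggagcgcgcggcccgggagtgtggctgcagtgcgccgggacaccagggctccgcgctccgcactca
COL4A3: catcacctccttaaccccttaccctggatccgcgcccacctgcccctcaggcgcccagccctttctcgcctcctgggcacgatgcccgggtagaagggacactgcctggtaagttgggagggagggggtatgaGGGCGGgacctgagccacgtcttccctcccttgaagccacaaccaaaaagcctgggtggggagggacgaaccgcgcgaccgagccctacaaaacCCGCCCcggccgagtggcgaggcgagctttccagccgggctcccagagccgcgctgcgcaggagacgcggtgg
COL4A5: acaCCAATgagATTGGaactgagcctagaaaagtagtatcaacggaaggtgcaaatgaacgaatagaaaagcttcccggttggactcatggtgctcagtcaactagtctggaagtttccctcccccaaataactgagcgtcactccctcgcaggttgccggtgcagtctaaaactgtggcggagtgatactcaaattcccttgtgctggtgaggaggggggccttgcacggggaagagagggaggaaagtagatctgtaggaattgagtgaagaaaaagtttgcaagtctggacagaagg
The start sites of COL4A1 and COL4A2 lay 127 bases apart, those of COL4A4 and COL4A3 419 bases apart and those of COL4A6 and COL4A5 380 or 1416 bases apart, depending on the COL4A6 start. Both COL4A2 matches, 1 CCAAT and 1 GC box, and the 77.7% G and C of its window stand beside 0 CCAAT and 2 GC box matches in the COL4A3 window and beside 2 CCAAT matches, 0 GC boxes and 49.3% G and C in the COL4A5 window. No TATA box (TATAAA or TTTATA) stood in any of the 3 windows. Over all 35116 RefSeq windows of this length, 34.6% held CCAAT, 45.0% GGGCGG and 11.5% TATAAA on either strand, against 14, 24 and 8 of the 44 windows of collagen genes. A match is a description of letters and not a site of binding.

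The libraries held 21267240 to 25972582 counts. UAP1 itself (ENSG00000117143) had 99.8, 102.5 and 128.6 FPKM in the control libraries 1 to 3 and 6.27, 6.72 and 7.26 FPKM in the siUAP1 libraries, where FPKM are counts scaled to gene length and library size and allow levels of different genes to be compared. The label of the line is high-grade serous carcinoma. Of 13 markers of that tumour and its epithelium, 3 (KRT7, KRT8 and KRT18) had a mean of at least 1 FPKM, MUC16 and SOX17 had no count in any library, and PAX8 was at 0.136 FPKM in control and 0.197 FPKM in siUAP1 libraries. These markers summed to 203 to 226 FPKM in control and 280.1 to 350.4 FPKM in siUAP1 libraries, and with the replicate numbers as pairs 4 of 7 tested rose (KRT7, KRT8, KRT18 and CLDN4), where 9.07% of all genes tested rose. Fibroblast and pericyte markers summed to 7.22 to 11.6 FPKM in control and 6.44 to 13.1 FPKM in siUAP1 libraries, with decorin (DCN), a defining fibroblast product, at 0 counts in all 6. Of the 6 tested entries of that list, 1 passed the test with pairs, beside the same 9.07% of all genes, the receptor gene PDGFRB, which rose from 1.03 to 2.10 FPKM (log2 0.95, SE 0.130, adjusted p = 7.58e-06). Leukocyte markers summed to 0.167 to 0.338 and 0.139 to 0.560 FPKM, and of 6 endothelial markers only CDH5 was above 1 FPKM, with means of 23.7 in control and 24.2 in siUAP1 libraries. The part of these markers in the results on collagens was not tested. In bulk RNA, a change in the number of cells of a kind and a change in RNA per cell cannot be told apart.

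ES2 cells expressed a limited set of collagens. Of the 44 chains, 17 had a mean of at least 1 FPKM over the 6 libraries and 9 at least 10 FPKM. COL1A1, the alpha1 chain of type I, and the type VI chains COL6A2 and COL6A1 were the most abundant. In control libraries COL6A2 was at 118 ± 16.5 FPKM, COL1A1 at 103 ± 36.9 FPKM and COL6A1 at 76.9 ± 17.2 FPKM (SD, n = 3), and these neighbours in the order did not differ beyond their spread. COL13A1 (28.9 ± 1.11 FPKM), COL5A1 (26.4 ± 6.18), COL12A1 (19.3 ± 2.69), COL6A3 (16.4 ± 2.31), COL5A2 (12.5 ± 5.21) and COL4A2 (10.2 ± 0.657) followed. The step from COL6A1 to COL13A1 exceeded the SDs, and from COL13A1 down each gene overlapped its neighbour in mean ± SD. The other 27 chains had means of at most 0.609 FPKM, and 17 of these had too few counts to be tested, 0 to 42 over the 6 libraries together. COL26A1 had no count in any library.

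**Figure D1:**
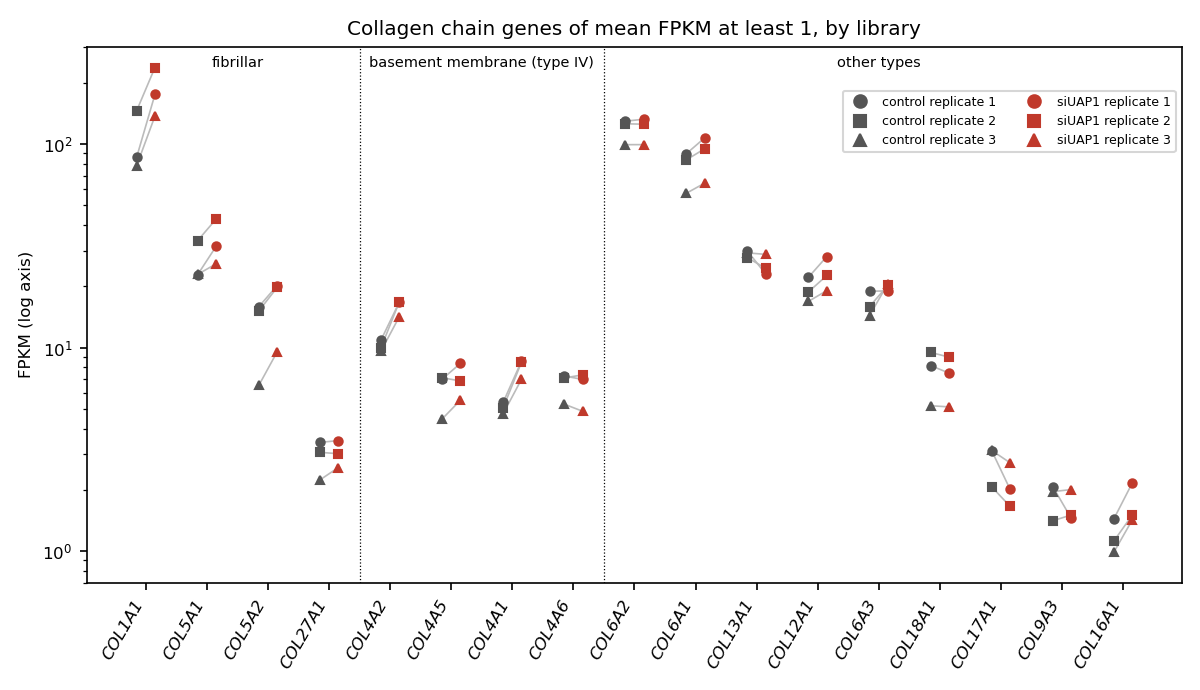
FPKM on a log axis of the 17 collagen chain genes with a mean of at least 1 FPKM, each library a point, control in grey and siUAP1 in red, with a line joining libraries of the same replicate number, and dotted lines between fibrillar, type IV and other types. COL1A1 is higher in siUAP1 in each of the 3 pairs although the groups overlap, and the libraries of replicate 3 (triangles) are often the lowest of both groups.

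Libraries with the same replicate number varied together. Of the 17 expressed chains, 13 were lowest in replicate 3 among the control libraries and 13 among the siUAP1 libraries, and 12 were lowest there in both groups. COL5A2 was at 6.52 FPKM in control replicate 3 against 15.9 and 15.1 in control replicates 1 and 2, and at 9.52 FPKM in siUAP1 replicate 3 against 20.2 and 19.7. COL17A1 went against this and was lowest in replicate 2 of both groups. The fit of the groups alone counts this spread as error. In that edgeR fit, which tested 27 of the 44 chains among 15768 genes, 0 chains passed an adjusted p of 0.05, where 0.108% of all genes tested did (0.0317% higher and 0.0761% lower), and the smallest adjusted p-values were those of COL4A2 (0.0796) and COL4A1 (0.0842). At an unadjusted p under 0.05 there were 7 chains, all higher in siUAP1, against 7.13% of all genes. COL1A2 and COL4A4 are among them and passed the count filter only through their siUAP1 libraries, so they are no support. Of the 17 chains of at least 1 FPKM, 5 were under that p, against 7.92% of genes of that level. Without pairs DESeq2 called 2 chains, COL4A1 and COL4A2, both higher, and limma-voom 0. Across all genes, libraries of the same number correlated in their deviations from the group mean, and so the replicate number was treated as a pairing. In what follows, rose and fell, log2 fold changes (siUAP1 minus control), SEs and adjusted p-values are from the edgeR fit with the replicate number as a block, over 3 pairs. On simulated data the share of false calls of that fit passed its nominal level in some runs.

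With the pairs, 11 of the 27 tested chains rose, 2 fell and 14 were not called, where 9.07% of all genes tested rose and 7.14% fell. Without pair 3, whose libraries were often the lowest, 7 rose and 2 fell, and without pair 1, 11 rose and 0 fell. A chain that passes the count filter through 1 group alone is chosen in part for being high there. The count is therefore also given for chains chosen by their mean over all 6 libraries. Of the 17 chains of at least 1 FPKM, 9 rose, 2 fell and 6 were not called. Among the 11876 genes of that level, 10.8% rose and 9.11% fell. The median log2 fold change of these 17 chains was 0.20, and that of all genes of that level was -0.01. By class, 3 of 4 fibrillar chains of that level rose, 2 of 4 type IV chains rose, and of 9 chains of other types 4 rose and 2 fell. Of the chains with less, COL1A2 and COL4A4 rose. CPM of the groups did not overlap in 3 of the 17 chains of at least 1 FPKM, all higher in siUAP1 (COL6A3, COL4A1 and COL4A2), where 6.79% of genes of that level were higher and 6.48% lower without overlap. Over all 27 tested chains there were 5, against 6.74% of genes tested higher and 5.71% lower, but the other two, COL4A4 and COL1A2, were tested through their siUAP1 libraries.

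**Figure D2:**
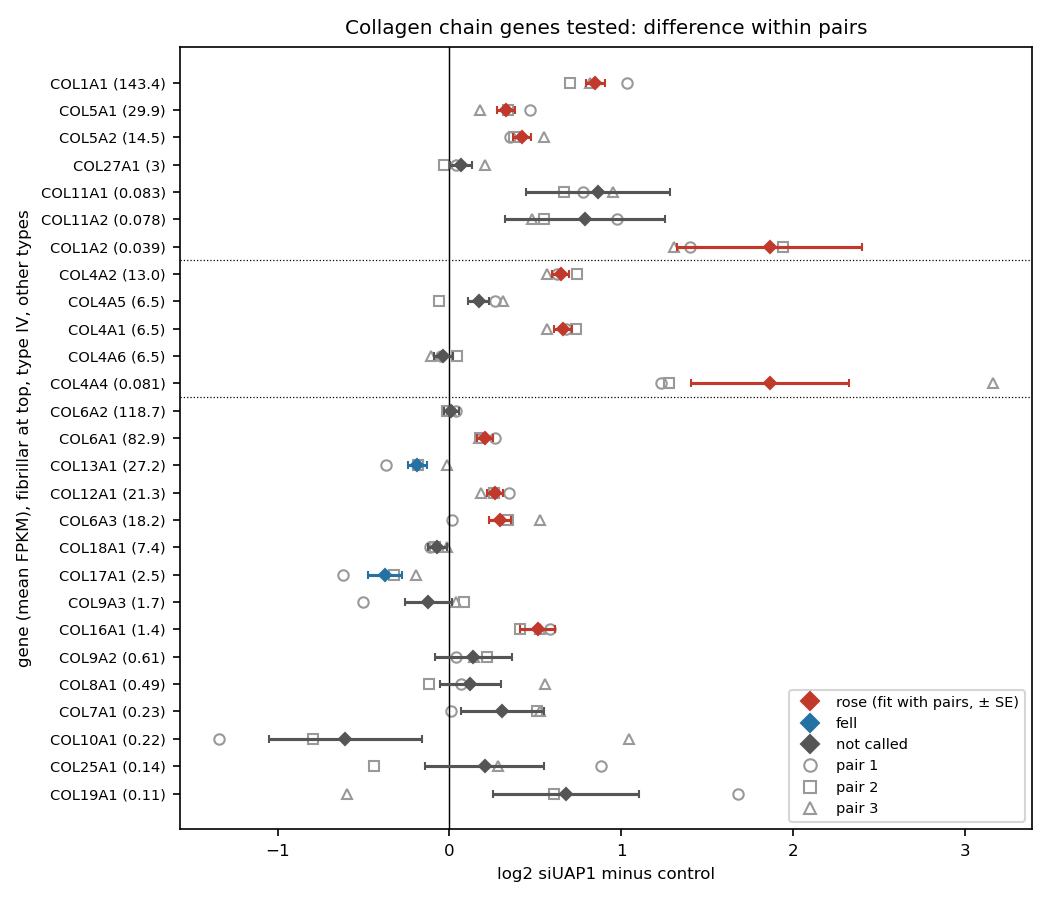
Log2 differences, siUAP1 minus control, of the 27 tested chains in the fit with pairs (diamonds, ± SE, red for rose, blue for fell and grey for not called) and in each pair (open symbols), with fibrillar chains above, type IV between the dotted lines and other types below. COL1A1, COL4A1 and COL4A2 have narrow errors well above 0, whereas chains under 1 FPKM have wide ones.

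Collagen counts as a share of each library show how far a single gene set the total. The 44 chains took 0.387%, 0.447% and 0.302% of counts in control libraries 1 to 3 and 0.526%, 0.582% and 0.399% in siUAP1 libraries 1 to 3. The share was higher in siUAP1 within each pair, while the groups overlapped. COL1A1 alone gave 22.0%, 33.0% and 25.1% of the collagen counts in control libraries and 33.4%, 40.7% and 33.5% in siUAP1 libraries. Summed FPKM of the chains of other types were 307.5, 288.0 and 229.5 in control and 325.5, 303.4 and 244.7 in siUAP1 libraries, a far smaller difference within pairs than in the fibrillar sum, which was 128.5, 197.7 and 110.1 in control and 230.9, 303.7 and 175.4 in siUAP1 libraries.

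**Figure D3:**
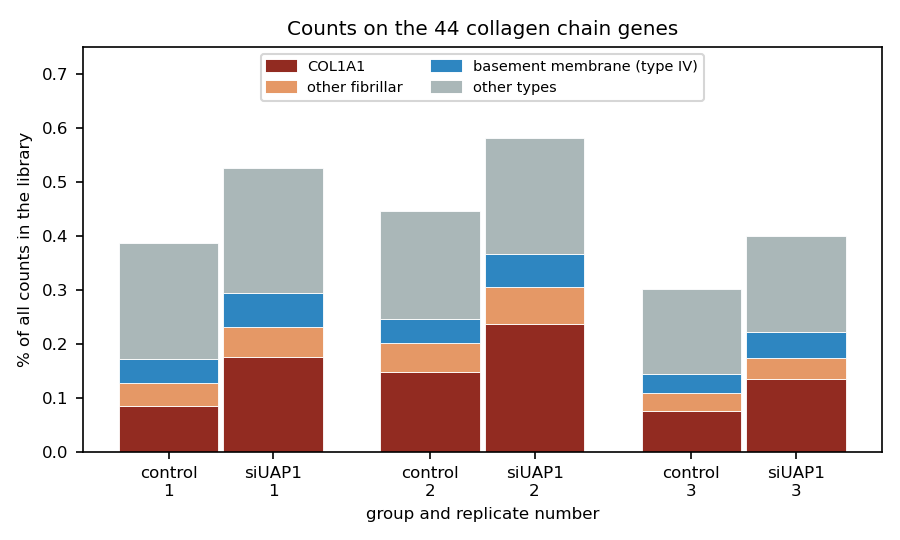
Counts on the 44 collagen chain genes as a percentage of all counts in each library, stacked by COL1A1, other fibrillar chains, type IV and other types, with libraries ordered by replicate number. The COL1A1 segment is larger in siUAP1 than in the control of the same number in all 3 pairs.

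Among fibrillar chains, COL1A1 (ENSG00000108821, GRCh38 chromosome 17, 50183289 to 50201632, minus strand) was at 86.1, 145.8 and 78.3 FPKM in control libraries 1 to 3 and at 175.3, 237.9 and 137.3 FPKM in siUAP1 libraries 1 to 3. The highest control library lay above the lowest siUAP1 library, and every siUAP1 library lay above the control of its number. COL1A1 rose 1.80-fold (log2 0.85, SE 0.0546, adjusted p = 4.98e-11), and by 1.03, 0.70 and 0.82 on the log2 scale in pairs 1 to 3. Its partner COL1A2 (chromosome 7, 94394561 to 94431232, plus strand), whose alpha2 chain joins alpha1 chains in the usual type I molecule, was nearly absent, with 6, 2 and 5 counts in control and 21, 14 and 16 counts in siUAP1 libraries. COL1A2 rose in the fit (log2 1.86, SE 0.537, adjusted p = 0.0175), but 0 of the 3 control libraries had enough counts for the filter, so it was tested through its siUAP1 libraries alone. Its call ended without pair 2 (adjusted p = 0.107) or pair 3 (0.0786). Per length, COL1A1 exceeded COL1A2 by a ratio of at least 2251 in each of the 6 libraries.

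The type V chains, which enter type I fibrils at their core, both rose. COL5A1 (chromosome 9, 134641774 to 134844843, plus strand) was at 22.8, 33.6 and 22.9 FPKM in control and 31.4, 42.8 and 25.8 FPKM in siUAP1 libraries (log2 0.33, SE 0.0512, adjusted p = 4.35e-05). COL5A2 (chromosome 2, 189031896 to 189225312, minus strand) was at 15.9, 15.1 and 6.52 FPKM in control and 20.2, 19.7 and 9.52 FPKM in siUAP1 libraries (log2 0.42, SE 0.0521, adjusted p = 1.83e-06). For both, each siUAP1 library lay above the control of its number and the groups overlapped. The ratio of COL5A1 to COL5A2 in FPKM ran from 1.44 in control replicate 1 to 3.52 in control replicate 3 and was 2.39 ± 1.05 in control and 2.14 ± 0.576 in siUAP1 libraries (SD, n = 3), so that it varied more between replicate numbers than between groups.

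The other fibrillar genes were low. COL27A1 was at 2.91 ± 0.607 FPKM in control and 3.03 ± 0.460 FPKM in siUAP1 libraries and was not called (log2 0.07, SE 0.0655, adjusted p = 0.555). The type XI chains, partners of type II in cartilage, had 3 to 36 counts (COL11A1) and 7 to 24 counts (COL11A2) per library, with log2 fold changes of 0.86 (SE 0.419) and 0.79 (SE 0.465), and neither was called (adjusted p = 0.180 and 0.285). Only 1 control library of COL11A2 had enough counts for the filter, so that it was tested through its siUAP1 libraries. COL5A3 had 2, 1 and 0 counts in control and 16, 2 and 0 counts in siUAP1 libraries. COL24A1 had 23 counts over the 6 libraries, COL3A1 10 and COL2A1, the cartilage collagen, 1, and none of these was tested. COL3A1 encodes type III, which accompanies type I in many tissues, and lies 19149 bases from COL5A2, which was expressed.

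The type IV genes COL4A1 and COL4A2 moved together. COL4A2 (chromosome 13, 110305812 to 110513209, plus strand) was at 10.9, 9.97 and 9.61 FPKM in control and 16.7, 16.8 and 14.2 FPKM in siUAP1 libraries, and COL4A1 (chromosome 13, 110148963 to 110307233, minus strand) at 5.38, 5.05 and 4.73 FPKM in control and 8.56, 8.47 and 6.98 FPKM in siUAP1 libraries. For both, every siUAP1 library lay above every control library. COL4A2 rose 1.57-fold (log2 0.65, SE 0.0479, adjusted p = 4.00e-10) and COL4A1 1.58-fold (log2 0.66, SE 0.0517, adjusted p = 9.61e-10). In pairs 1 to 3 the log2 difference was 0.63, 0.74 and 0.57 for COL4A2 and 0.68, 0.74 and 0.57 for COL4A1. The COL4A1 to COL4A2 ratio was 0.498 ± 0.00804 in control and 0.503 ± 0.0102 in siUAP1 libraries (SD, n = 3) and did not leave 0.492 to 0.513 in any library. The annotated genes overlap by 1422 bases on opposite strands at their shared start, and no source used here says whether the counting used strand, so reads from this stretch cannot be told apart.

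The X-linked pair, chains found together in skin and smooth muscle, was not called. COL4A5 (chromosome X, 108439844 to 108697545, plus strand) was at 6.99, 7.11 and 4.46 FPKM in control and 8.36, 6.86 and 5.51 FPKM in siUAP1 libraries (log2 0.17, SE 0.0616, adjusted p = 0.0631). COL4A6 (chromosome X, 108155607 to 108439497, minus strand) was at 7.25, 7.10 and 5.28 FPKM in control and 6.98, 7.35 and 4.87 FPKM in siUAP1 libraries (log2 -0.04, SE 0.0563, adjusted p = 0.746). In both genes the replicate 3 libraries were lowest and the groups overlapped, and COL4A5 was called without pair 2 (log2 0.29, adjusted p = 0.00114). The COL4A5 to COL4A6 ratio was 0.937 ± 0.0825 in control and 1.09 ± 0.137 in siUAP1 libraries (SD, n = 3). In control libraries COL4A5 was at 6.19 ± 1.50 FPKM and COL4A6 at 6.54 ± 1.10 FPKM, beside 5.05 ± 0.325 FPKM of COL4A1. Whether the change differed between the chromosome 13 and the X-linked pair was not tested.

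The pair of COL4A4 and COL4A3, chains of kidney and lung basement membrane, was barely expressed. COL4A4 had 13, 12 and 1 counts in control and 37, 33 and 26 counts in siUAP1 libraries, and rose in the fit (log2 1.87, SE 0.462, adjusted p = 0.00593). Only 2 of its 3 control libraries had enough counts for the filter, so that it was tested through its siUAP1 libraries, as was COL1A2, and neither its rise nor the lack of overlap between its groups is support. Its pair values were 1.23, 1.28 and 3.17, the last from the control library with 1 count, and without pair 3 the call ended (log2 1.37, adjusted p = 0.0882). COL4A3 had 11, 7 and 5 counts in control and 6, 7 and 6 counts in siUAP1 libraries and was not tested. Its counts overlap an antisense gene, AC097662.1, at 0.815 CPM (counts scaled to library size only).

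**Figure D4:**
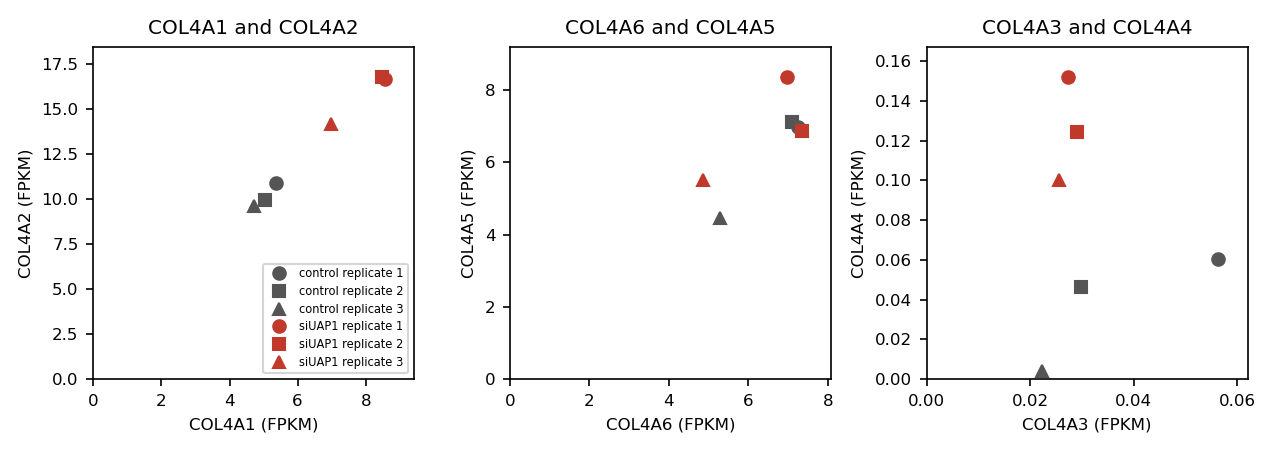
FPKM of the type IV chains in each library, the gene on the minus or plus strand of each head-to-head pair on either axis, control in grey and siUAP1 in red, with symbols for the replicate number. COL4A1 and COL4A2 lie along a line with the siUAP1 libraries at its upper end, while for COL4A6 and COL4A5 the replicate 3 libraries are lowest, and COL4A4 separates by group at levels under 0.2 FPKM.

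Type VI chains, which assemble as alpha1, alpha2 and alpha3 into beaded microfibrils, had 3 expressed members, of which 2 rose. COL6A1 was at 89.7, 83.6 and 57.3 FPKM in control and 107.3, 94.9 and 64.3 FPKM in siUAP1 libraries and rose 1.15-fold (log2 0.20, SE 0.0461, adjusted p = 0.00266). COL6A3 was at 18.9, 15.9 and 14.4 FPKM in control and 19.0, 20.2 and 20.6 FPKM in siUAP1 libraries and rose 1.23-fold (log2 0.29, SE 0.0626, adjusted p = 0.00151), with 0.01, 0.34 and 0.53 in pairs 1 to 3. COL6A2 was at 129.6, 125.8 and 99.4 FPKM in control and 132.5, 125.3 and 99.4 FPKM in siUAP1 libraries and was not called (log2 0.01, SE 0.0457, adjusted p = 0.913). COL6A1 and COL6A3 lost their calls without pair 3 (log2 0.22 and 0.18, adjusted p = 0.0717 and 0.220), and DESeq2 with the pairs did not call COL6A3 (adjusted p = 0.222). Whether COL6A2 differed from them in its change was not tested. The COL6A1 to COL6A2 ratio in FPKM was 0.692, 0.665 and 0.577 in control and 0.810, 0.757 and 0.647 in siUAP1 libraries, higher in siUAP1 within each pair. COL6A1 and COL6A2 are neighbours on chromosome 21, on the same strand and 93046 bases apart. COL6A5 and COL6A6, later chains that can stand in for alpha3, had 2 and 22 counts over the 6 libraries.

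Of 10 FACIT genes, 3 were expressed at 1 FPKM or more and 2 rose. COL12A1, whose chain coats type I fibrils, was at 22.2, 18.8 and 16.9 FPKM in control and 28.0, 22.6 and 19.1 FPKM in siUAP1 libraries (log2 0.26, SE 0.0472, adjusted p = 0.000247). COL16A1 was at 1.44, 1.12 and 0.989 FPKM in control and 2.16, 1.50 and 1.42 FPKM in siUAP1 libraries (log2 0.51, SE 0.102, adjusted p = 0.000785). Both were higher in siUAP1 in all 3 pairs, with overlap of the groups. The type IX chains COL9A3 (log2 -0.12, SE 0.135) and COL9A2 (log2 0.14, SE 0.224) were not called, nor was COL19A1 (log2 0.68, SE 0.424), which had 11 to 44 counts per library. COL9A3 overlaps TCFL5 by 45 bases and COL19A1 overlaps LMBRD1, both on the opposite strand, so their counts are uncertain. COL21A1 had 4, 4 and 0 counts in control and 8, 18 and 6 counts in siUAP1 libraries and was not tested, and COL9A1, COL14A1, COL20A1 and COL22A1 had 2 to 4 counts over the 6 libraries.

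The 2 chains that fell were transmembrane collagens. COL13A1, a cell-surface collagen of adhesion sites, was at 29.8, 27.7 and 29.2 FPKM in control and 23.0, 24.5 and 28.7 FPKM in siUAP1 libraries (log2 -0.19, SE 0.0548, adjusted p = 0.0191). COL17A1, the hemidesmosomal collagen of epithelia, was at 3.11, 2.07 and 3.13 FPKM in control and 2.01, 1.66 and 2.72 FPKM in siUAP1 libraries (log2 -0.38, SE 0.0974, adjusted p = 0.00836). For both, the groups overlapped, each siUAP1 library lay below the control of its number and pair 1 had the widest difference (-0.37 and -0.62). Without pair 1 neither was called (log2 -0.10 and -0.25, adjusted p = 0.234 and 0.122), and DESeq2 with the pairs gave adjusted p = 0.0595 and 0.0705. COL25A1 was at 17 to 51 counts per library and not called (log2 0.21, SE 0.347), and COL23A1 had 1 count in all.

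The remaining types were low or showed no call. COL18A1, whose chain carries heparan sulfate in basement membranes and releases endostatin, was at 7.60 ± 2.20 FPKM in control and 7.20 ± 1.95 FPKM in siUAP1 libraries (log2 -0.07, SE 0.0549, adjusted p = 0.439), with SLC19A1 overlapping it on the opposite strand at 37.4 CPM against its own 63.7 CPM. COL7A1, the anchoring fibril of skin, was at 0.426 FPKM in control replicate 1 and at 0.130 and 0.0884 FPKM in the other control libraries, and at 0.426, 0.189 and 0.130 FPKM in siUAP1 libraries (log2 0.31, SE 0.240). COL8A1, which forms networks under endothelium, and COL10A1, the collagen of growth plate cartilage, were not called (log2 0.12, SE 0.178, and -0.61, SE 0.447). COL10A1 lies within NT5DC1, transcribed from the other strand at 50.5 CPM against 0.837 CPM, so that its counts are uncertain. Only 2 control libraries of COL10A1 had enough counts for the filter, so that it was tested through its siUAP1 libraries. COL8A2, COL28A1 and COL15A1 had 24, 33 and 8 counts over the 6 libraries.

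Genes that modify, export, cut and bind collagen were followed in 5 lists, with 72 different genes tested. Without pairs 2 of these were called by edgeR, TGFBI higher and MMP1 lower, where 0.108% of all genes tested were called. With pairs 37 rose and 3 fell, where 9.07% of all genes tested rose and 7.14% fell. All 5 lists were chosen with earlier results of these data known. Their counts and medians, here and below, are therefore descriptions and no separate support. In the 5 lists 67 genes had a mean of at least 1 FPKM, a level at which 10.8% of all genes rose and 9.11% fell. Of 18 tested genes of collagen modification and folding, 8 rose, 1 fell and 9 were not called, with a median log2 fold change of 0.15 against -0.00295 for all genes tested. The enzymes that add galactose to hydroxylysine of collagen went opposite ways: COLGALT1 fell from 27.1 to 17.9 FPKM, without overlap (log2 -0.60, SE 0.0487, adjusted p = 1.90e-09), and COLGALT2 rose from 0.921 to 1.60 FPKM, also without overlap (log2 0.80, SE 0.118, adjusted p = 2.13e-05). The prolyl 3-hydroxylase genes P3H2 (log2 0.42, SE 0.0528) and P3H1 (0.23, SE 0.0507), their relative P3H4 (0.31, SE 0.0702) and SERPINH1, the collagen chaperone HSP47 (0.25, SE 0.0503), rose. P4HB, a subunit of prolyl 4-hydroxylase (-0.05, SE 0.0462), and the isomerase gene PPIB (-0.06, SE 0.0481) were abundant and not called.

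Of 20 tested genes of export, cleavage and crosslinking, 9 rose, 0 fell and 11 were not called, with a median of 0.19, beside the 9.07% and 7.14% of all genes. Those that rose included CREB3L1 (log2 0.50, SE 0.0587) and CREB3L2 (0.24, SE 0.0507), transcription factors of secretory cells, the protease gene FURIN (0.41, SE 0.0497), the crosslinking enzyme genes LOXL2 (0.34, SE 0.0477) and LOXL3 (0.48, SE 0.0935) and the transglutaminase gene TGM2 (0.25, SE 0.0471). LOX itself was at 79.0 and 79.1 FPKM and was not called (adjusted p = 0.982). LOXL1 was not called either (0.14, SE 0.0493, adjusted p = 0.0517), though it was higher in siUAP1 in each pair. Of 14 tested genes of breakdown and uptake, 7 rose and 2 fell, beside the same shares. MMP2, which cuts type IV and denatured collagen (1.44, SE 0.0512), and FAP (0.98, SE 0.112) rose. The metalloproteinase inhibitor genes TIMP3 (1.09, SE 0.0534) and TIMP2 (0.40, SE 0.0467) rose as well. Inhibitors are thus among the 7 that rose, and the counts and median of this list do not measure breakdown. MMP1, the collagenase of fibrillar collagen, fell by 0.88 on the log2 scale (SE 0.0495) and PLAUR by 0.50 (SE 0.0510). MMP14, which activates MMP2 at the cell surface, and TIMP1 were not called (log2 -0.03 and -0.02). Summed over the list, FPKM ran from 4011 to 4127 in control and from 2513 to 2657 in siUAP1 libraries, and MMP1 made up most of it.

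Of 9 tested collagen receptor genes, 6 rose and 0 fell, with a median of 0.32, where 9.07% of all genes tested rose and 7.14% fell. They were the integrin genes ITGA1 (log2 0.64, SE 0.0567), ITGA2 (0.53, SE 0.0567) and ITGB1 (0.31, SE 0.0477), the tyrosine kinase receptor genes DDR1 (0.65, SE 0.0612) and DDR2 (0.19, SE 0.0481) and the uptake receptor gene MRC2 (0.32, SE 0.0692), while CD44 (0.02) and ITGA10 (-0.07) were not called. Of 12 tested matrix partners, 8 rose and 0 fell, with a median of 0.45, beside the same shares of all genes. Among basement membrane components, the nidogen genes NID1 (0.68, SE 0.122) and NID2 (1.23, SE 0.166), which link laminin to type IV collagen, and the perlecan gene HSPG2 (0.49, SE 0.0595) rose, whereas the laminin genes LAMB1 and LAMC1 were at 0.04 each (SE 0.0462 and 0.0473) and were not called. SPARC, a collagen-binding protein, rose from 68.3 to 102 FPKM (0.58, SE 0.0502), and THBS1 (0.66, SE 0.0476) and TGFBI (1.18, SE 0.0560) rose as well. DCN and FMOD, proteoglycans that bind fibrils, had 0 counts in every library.

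**Figure D5:**
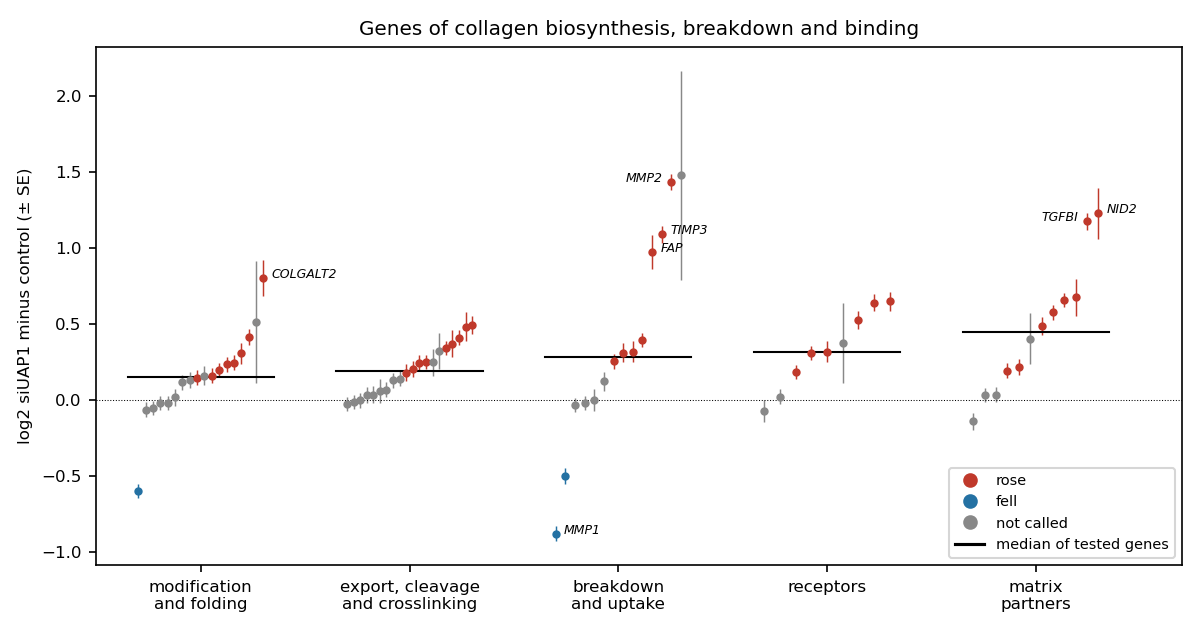
Log2 fold changes with pairs (± SE) of the tested genes in 5 lists of collagen biosynthesis, breakdown and binding, red for rose, blue for fell and grey for not called, with a bar at each list's median. The medians lie between 0.15 and 0.45, and the genes that fell are COLGALT1, PLAUR and MMP1.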

How the data were processed

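RNA of 6 ES2 libraries (3 control, 3 siUAP1, grouped by their titles) was analysed. The authors deposited raw counts per gene and FPKM. Each FPKM equals the count divided by gene length and by 1 constant per library, so that the tables hold the same counts. The submitters' processing notes name the build GRCh38.p12 and DESeq2. Aligner, counter, annotation and strandedness: not given in the sources used here. Per the labels the molecule was polyA RNA, while the protocol also names rRNA depletion.

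Counts were tested with edgeR 4.0.16 (R 4.3.3): filterByExpr (minimum count 10), TMM scaling and a quasi-likelihood fit on group. P-values of all 15768 tested genes were adjusted by Benjamini-Hochberg, and 0.05 was the threshold. SE is the fold change divided by the square root of F. The labels do not say whether replicates were separate cultures, and each p-value then measures only the spread of these samples, possibly technical. Replicates all differed beyond counting noise (chi-square over its degrees of freedom, 23.9 to 41.3). Titles share replicate numbers, and the names of libraries of the same number share a code that the labels do not explain. Deviations from the group mean correlated at 0.552, 0.454 and 0.584 in libraries of the same number (different numbers -0.434 to -0.0893). Deviations cancel within each group for every gene, so the negative values follow in part from the positive ones. The fit with the replicate number as a block is given as the paired value. Log2 differences of single pairs used log CPM with a prior count of 2.

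DESeq2 1.42.0, limma 3.58.1 (voom, and log2(FPKM + 1) or log2(FPKM + 0.1), with fold changes given on that log2(value + pseudocount) scale), other scalings and filters and leaving out libraries were alternatives. The edgeR step was tested on simulated data, where the simulated fold changes were recovered in size and direction. These were larger than the changes of several called chains, such as COL6A1 (1.15-fold), and recovery at that size was not tested. With the pairs the share of false calls passed its nominal level in some runs. Named genes were all collagen chains, and per pathway list up to 6 called genes of smallest p and 2 abundant genes not called. The members, classes and lists were chosen with earlier results of these data known.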

Additional observations from a re-analysis of the deposited data

How the results depend on the processing

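Without pairs, edgeR called 0 of 27 tested collagen chains, and this held with RLE scaling, library totals, protein-coding genes alone, a minimum mean CPM of 5, limma-voom, limma on FPKM and without any 1 library. The replicate block changed it most: 13 chains (fibrillar 4, type IV 3, other types 6), or 11, 13 and 9 without pair 1, 2 and 3 (fibrillar 3 to 4, type IV 2 to 4, other types 4 to 6). Of the 13, COL1A2 (fibrillar) and COL4A4 (type IV) were tested through their siUAP1 libraries, so that their calls are no support. With the block and RLE scaling or library totals the counts were again 13, 4, 3 and 6, and so were those of limma-voom with the block. With the block and no filter beyond 1 count they were 14, 4, 4 and 6, and with the block in DESeq2 8, 3, 2 and 3. Without the block, no filter beyond 1 count gave 3 chains (fibrillar 1, type IV 2) and DESeq2 2, both type IV. Counting types VII, XV and XVIII with type IV left the count without pairs at 0.

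COL1A1, COL5A1, COL5A2, COL4A1, COL4A2, COL12A1 and COL16A1 were called in all 9 fits with the block, and no called chain changed direction in any of them. COL4A5 was called in 2 of the 9, without pair 2 (log2 0.29) and with no filter (0.17).

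The median log2 fold change of tested chains was 0.221 without pairs and ran from 0.0339 (without control replicate 3) to 0.398 (without siUAP1 replicate 3). It was 0.264 with the block (0.191 to 0.270 without 1 pair), 0.261 with the block and RLE scaling, 0.263 with the block and library totals, 0.305 with the block and no filter, 0.288 with no filter, 0.281 with DESeq2, 0.324 with DESeq2 and the block, 0.264 with limma-voom and 0.0308 with log2(FPKM + 1) and no filter. Pathway genes called were 2 without pairs (0 to 1 without 1 library), 16 with no filter, 7 with DESeq2 and 0 in each limma fit on FPKM. With the block they were 40 (29 to 38 without 1 pair, the fewest without pair 3), 40 with RLE scaling, 41 with library totals, 39 with no filter, 35 with DESeq2 and 41 with limma-voom.

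The fits with the block that use another scaling or no filter were added after seeing the data. DESeq2 gave no adjusted p to COL1A2 and COL4A4 with the block. Depth limits the 27 chains under 1 FPKM, of which 17 could not be tested and 10 had SEs of 0.178 to 0.537 in log2. Ratios of chains from CPM per kilobase are the same by construction and are no separate check.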
